A study of Zea mays with 12 samples.

Results

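Tonoplast intrinsic proteins (TIPs) are the aquaporins of the vacuole membrane, and 4 of their maize genes, TIP2-1, TIP2-2, por2 (synonym TIP2-3) and TIP4-1, are described here in nematode-induced giant cells and in control root cells. Each gene was found by its symbol or synonym in the platform's probe-to-gene table and in RefSeq (assembly Zm-B73-REFERENCE-NAM-5.0), and each had 1 probe set. They are 4 of the 1108 genes that the platform table names, 4 of its 10 TIP genes, and their probe sets are 4 of the 17621 maize probe sets on the array. The RefSeq table lists 13 TIP entries, of which TIP4-2 accounts for a gene and a transcribed pseudogene. The 4 genes were chosen with their difference between giant and control cells already known. That difference is therefore given as a description, with no test.

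The cells came from seedlings of a cross of the maize lines A188 and B73, aged 2 weeks when 1000 second-stage juveniles of the root-knot nematode Meloidogyne incognita were placed near the roots. Giant cells, the enlarged feeding cells that the nematode induces, were laser-captured at 14 and 21 days after inoculation (about 40 to 60 cells from 5000000 µm2 per sample). Control cells were captured on the same days from stretches of these infested roots that held no nematodes (about 75 to 150 cells from 13000000 µm2), so every plant was infested and the captured area differed with cell type. Each of the 4 groups had 3 biological replicates with 1 Affymetrix array each, 12 arrays in all, and no source used here says which plants they came from or which root tissue the control cells belonged to. The p-values below therefore measure only the spread between these samples.

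TIPs form water-permeable pores and let a cell move water between cytoplasm and vacuole as it expands or adjusts its turgor. In Arabidopsis, TIP2 proteins also conduct ammonia, TIP1 proteins are the abundant TIPs of vegetative tissue, TIP3 proteins belong to seed storage vacuoles, TIP4;1 also conducts urea, and TIP5;1 belongs to pollen. Giant cells are known for dense cytoplasm and many small vacuoles in place of a large central one.

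Values are MAS5 signals, the brightness of a probe set after the manufacturer's background correction and scaling. The trimmed mean of every array was 500.1 or 500.2, and the median signal ran from 182.2 to 229.9. Precision is limited by the number of arrays. Signals of different probe sets were not compared, because each probe set has its own response. Percentiles give the place of a signal among the maize probe sets of the same array. Differences are on the scale of log2(signal + 9.5), where 9.5 is the 10th percentile of all signals, so that folds of dim genes are understated. The added transcripts are the manufacturer's hybridization controls bioB, bioC, bioD and cre (27 probe sets). Their mean log2 signals were 12.77 to 13.28 on control arrays and 13.45 to 14.18 on giant-cell arrays, a difference of 0.70. They were not taken as a measure of the RNA in the captured cells. Scaling the arrays to these transcripts moved the median difference of all tested probe sets between cell types from 0.15 to -0.53.

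The 3 TIP2 genes were bright in control cells and dim in giant cells at both times. On every array of giant cells each of them lay below every array of control cells of the same day. TIP4-1 was dim throughout and was brighter in giant cells at 21 days.

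TIP2-1 (Gene ID 541894) encodes a TIP of the ammonia-conducting TIP2 class. Its signals in control cells were 8495.7, 4722.9 and 5479.0 at 14 days and 4770.1, 4286.3 and 4040.4 at 21 days. In giant cells they were 262.6, 205.4 and 117.8 at 14 days and 65.8, 183.7 and 813.8 at 21 days. The control arrays stood close together and near the top of their arrays, whereas the giant-cell arrays of 21 days were spread widely, with replicate 3 far above replicate 1. The percentile of TIP2-1 was 97.1 to 99.4 in control cells, and in giant cells it ran from 30.8 to 81.3.

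The mean giant-cell signal of TIP2-1 was 195.2 ± 72.9 (SD, n = 3) at 14 days and 354.4 ± 402.2 at 21 days, against 6232.5 ± 1996.1 and 4365.6 ± 371.3 in control cells. On the log2 scale TIP2-1 was lower in giant cells by 24.3-fold as the mean of both days (log2 difference -4.60 ± 0.44, SE from limma). The difference was -4.95 ± 0.63 at 14 days and -4.25 ± 0.63 at 21 days. The 21-day fold of 19.1 became 36.2 without giant-cell replicate 3 and 10.9 without giant-cell replicate 1. The lowest control array of 21 days was still 4.96 times as bright as the brightest giant-cell array.

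TIP2-2 (Gene ID 541895) belongs to the same class. Its control signals were 3373.6, 1773.3 and 1865.9 at 14 days and 1402.1, 1439.4 and 521.1 at 21 days. Its giant-cell signals were 41.5, 40.8 and 51.6 at 14 days and 12.3, 27.4 and 25.1 at 21 days. Control replicate 3 of 21 days was the dimmest control array, and the giant-cell arrays of 14 days were nearly equal. TIP2-2 was the one of the 3 TIP2 genes whose 21-day arrays all lay below its 14-day arrays in both cell types. TIP1-1 came close to this. Its control arrays were separated in the same way, and in giant cells its brightest 21-day array, 364.5, just passed its dimmest 14-day array, 363.8. The share of all probe sets with such a separation was not counted.

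The mean signal of TIP2-2 in giant cells was 44.6 ± 6.06 (SD, n = 3) at 14 days and 21.6 ± 8.16 at 21 days, against 2337.6 ± 898.4 and 1120.9 ± 519.7 in control cells. It was lower in giant cells by 37.6-fold as the mean of both days (log2 -5.23 ± 0.28), with -5.38 ± 0.40 at 14 days and -5.08 ± 0.40 at 21 days. In its array TIP2-2 went from the 71.9 to 96.7 percentile in control cells to the 11.3 to 27.6 percentile in giant cells. Its fold was 48.4 with an offset of 1 and 19.1 with an offset of 50. Of the 3 TIP2 genes it had the smallest spread within groups, a pooled SD of 0.53 on the log2 scale, against 0.69 for por2, 0.94 for TIP2-1 and a median of 0.39 over all tested probe sets.

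The gene por2 (Gene ID 541687), whose synonym TIP2-3 places it in the TIP2 class, had control signals of 5242.2, 2210.2 and 2998.4 at 14 days and 2224.0, 2357.6 and 1680.9 at 21 days. In giant cells its signals were 33.7, 27.9 and 10.4 at 14 days and 12.3, 59.7 and 70.7 at 21 days. On every giant-cell array por2 was among the dimmer probe sets, and its lowest signals were close to the offset. Its percentile was 91.1 to 98.5 in control cells and 11.3 to 29.4 in giant cells.

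The mean signal of por2 in giant cells was 24.0 ± 12.2 (SD, n = 3) at 14 days and 47.6 ± 31.0 at 21 days, against 3483.6 ± 1573.1 and 2087.5 ± 358.4 in control cells. Averaged over the days por2 was lower by 65.7-fold (log2 -6.04 ± 0.34), with -6.69 ± 0.48 at 14 days and -5.39 ± 0.48 at 21 days. The 21-day fold of 42.0 was 27.9 without giant-cell replicate 1. Because the giant-cell signals were so dim, the size of this fold depends on the offset, and it was 88.0 with an offset of 1 and 32.0 with an offset of 50.

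**Figure D1:**
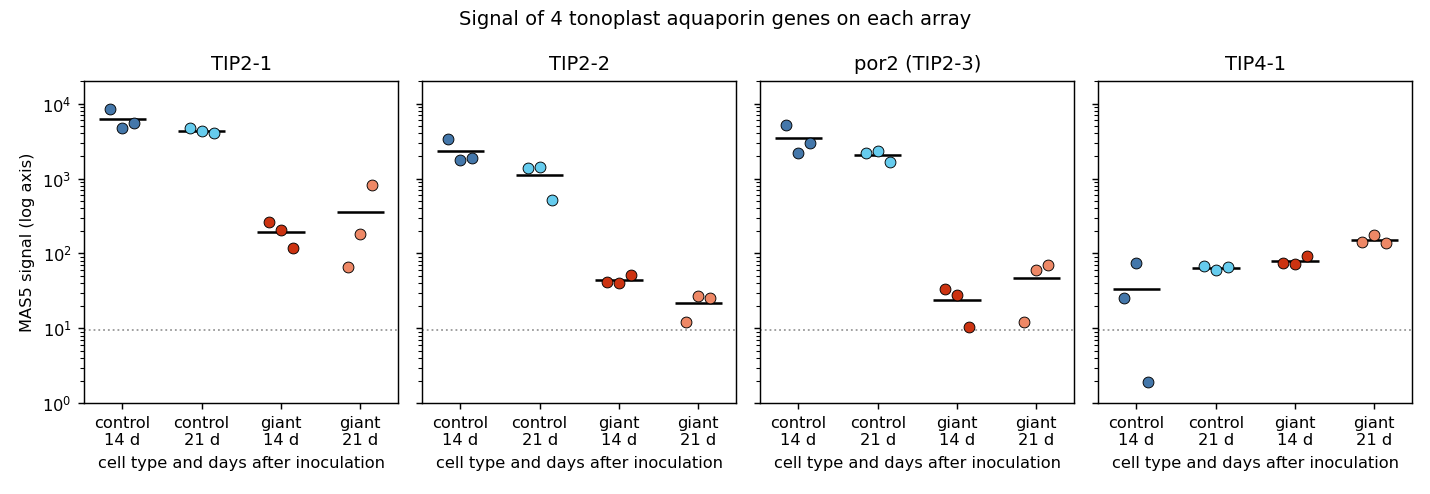
MAS5 signal (log axis) of TIP2-1, TIP2-2, por2 and TIP4-1 on each array, by cell type and day; points are arrays in the order of replicates 1 to 3, bars are arithmetic means of 3 arrays and the dotted line is the offset of 9.5. The control points of the 3 TIP2 genes lie above all their giant-cell points, whereas TIP4-1 lies low in all groups and is highest in giant cells at 21 days.

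Among the 12080 probe sets tested, 11 had a lower mean difference between giant and control cells than por2, 28 a lower one than TIP2-2 and 40 a lower one than TIP2-1. Over all tested probe sets 17.0% were called lower in giant cells at an adjusted p of 0.05, and 9.83% had all giant-cell arrays below all control arrays on both days, as these 3 genes had. The genes were chosen on this contrast, so nothing is read from these shares. With the arrays scaled to the added transcripts the differences were -6.63 for por2, -5.83 for TIP2-2 and -5.28 for TIP2-1. Relative to the median of all probe sets they were -6.10, -5.30 and -4.75, against -6.19, -5.38 and -4.75 on the deposited scale.

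TIP4-1 (Gene ID 541897) encodes the TIP4 member of the set. Its control signals were 25.7, 74.5 and 1.93 at 14 days and 67.6, 60.1 and 65.2 at 21 days. Its giant-cell signals were 73.6, 73.2 and 92.9 at 14 days and 140.0, 174.5 and 137.6 at 21 days. At 14 days the brightest control array was above the 2 dimmer giant-cell arrays, so the cell types overlapped, while at 21 days they did not. On no array did TIP4-1 reach the median of its own array, and its highest percentile was 46.5.

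The mean signal of TIP4-1 in giant cells was 79.9 ± 11.3 (SD, n = 3) at 14 days and 150.7 ± 20.6 at 21 days, against 34.0 ± 37.0 and 64.3 ± 3.83 in control cells. Averaged over the days it was higher in giant cells by 2.44-fold (log2 1.29 ± 0.41), with 1.46 ± 0.59 at 14 days and 1.11 ± 0.59 at 21 days. The 14-day value rested on the control arrays, since the fold of 2.75 became 4.43 without control replicate 2 and 1.64 without control replicate 3. Scaled to the added transcripts, the mean difference was 0.68 ± 0.48.

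Of all tested probe sets 605 had a higher mean difference than TIP4-1, 25.1% were called higher in giant cells, and 22.7% had all giant-cell arrays above all control arrays at 21 days. TIP4-1 passed the filter on dim probe sets through its 3 giant-cell arrays of 21 days and no other, so part of its difference was a condition of being tested. Under the stricter filter it was not tested. The other 3 genes were above the filter on all control arrays.

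The order of the group means on the log2 scale was the same for TIP2-1 and por2, with control cells of 14 days first, followed by control cells of 21 days and then by giant cells, where 21 days came before 14 days. In TIP2-1 and por2 the 2 days overlapped within each cell type, and the step from control to giant cells (4.25 and 5.39 between the neighbouring groups) was larger than the larger SD of those groups (1.74 and 1.03). TIP2-2 had giant cells at 21 days last, and the arrays of neighbouring groups did not overlap at any of the 3 steps (1.13, 4.25 and 0.83). How many of all probe sets do so was not counted. For TIP4-1 giant cells came first and control cells last, with 21 days above 14 days in both. Of the neighbouring groups in the order of TIP4-1 the 2 control groups overlapped, with a difference of 1.19 against an SD of 1.44 among the control arrays of 14 days.

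**Figure D2:**
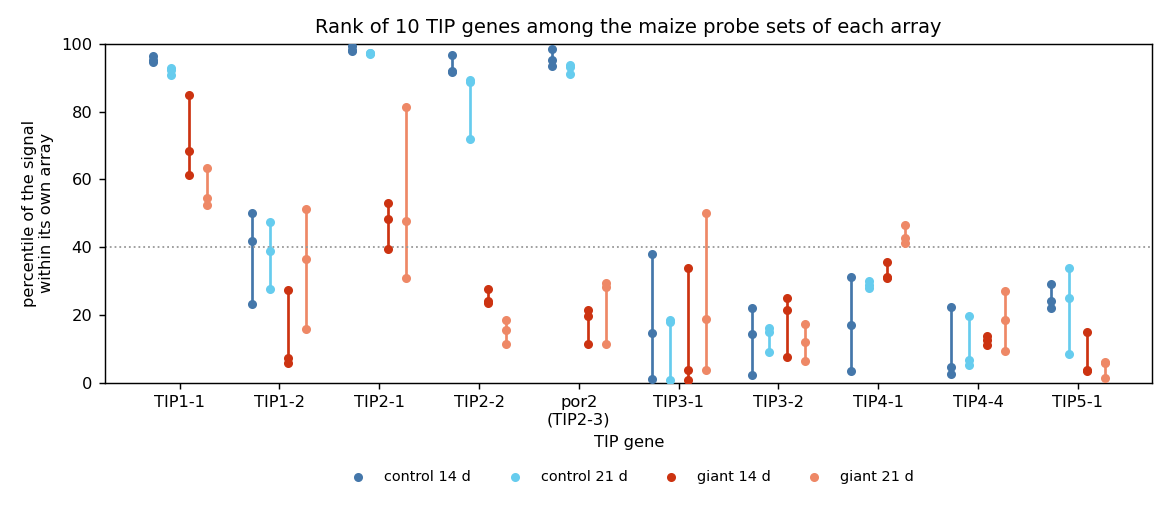
Percentile of the signal of 10 TIP genes among all maize probe sets of the same array (vertical axis), by cell type and day; points are arrays, vertical lines join the 3 arrays of a group, and the dotted line is the 40th percentile used in the filter. TIP2-1, TIP2-2, por2 and TIP1-1 lie above the 70th percentile on all control arrays, and TIP3-1, TIP3-2, TIP4-4 and TIP5-1 lie mostly below the line.

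The comparisons between days did not enter the choice of the genes, though the filter bears on those of TIP4-1 in giant cells, and they were tested with limma over all 12080 probe sets. None of the 4 genes passed in any of 3 comparisons, the difference of the giant-cell effect between days and the change from 14 to 21 days in giant or in control cells. Adjusted p-values of these 12 tests ran from 0.30 to 0.97, and 1 of them had an unadjusted p under 0.05. The backgrounds were low too, with 0.0% of probe sets called for the difference between days (0 at the adjusted threshold and 839 at an unadjusted p under 0.05), 0.637% in giant cells and 0.0248% in control cells.

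The unadjusted p under 0.05 belonged to TIP2-2 in control cells, where the 21-day signals were 2.18-fold lower (log2 -1.13 ± 0.40, 95% interval -1.99 to -0.26, adjusted p = 0.41 with limma). In giant cells TIP2-2 differed in the same direction by -0.83 ± 0.40 (interval -1.69 to 0.03, adjusted p = 0.30). The test of the difference between these changes gave 0.30 ± 0.56 (adjusted p = 0.96). All 3 arrays of 21 days lay below the 3 of 14 days in each cell type, and the fit did not pass. The share of all probe sets separated in this way was not counted, so nothing is read from the separation.

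For por2 the change from 14 to 21 days was 0.64 ± 0.48 in giant cells (adjusted p = 0.52) and -0.66 ± 0.48 in control cells (adjusted p = 0.66). The difference between these changes was 1.30 ± 0.68, with an interval from -0.17 to 2.76 (adjusted p = 0.75). The interval holds both no difference between days and one of several-fold. In the giant-cell arrays of 21 days, replicate 1 had a por2 signal close to those of 14 days and replicates 2 and 3 had higher ones.

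For TIP2-1 the change was 0.23 ± 0.63 in giant cells (interval -1.13 to 1.58, adjusted p = 0.88) and -0.47 ± 0.63 in control cells (adjusted p = 0.83), and the difference between them was 0.70 ± 0.89 (adjusted p = 0.93). The giant-cell value was -0.69 without giant-cell replicate 3 of 21 days and 1.03 without replicate 1 of that group. For TIP4-1 the change was 0.84 ± 0.59 in giant cells (interval -0.43 to 2.11, adjusted p = 0.49) and 1.19 ± 0.59 in control cells (interval -0.08 to 2.46, adjusted p = 0.54), with a difference of -0.35 ± 0.83 (adjusted p = 0.97). Because TIP4-1 entered the tests through its giant-cell arrays of 21 days alone, its giant-cell change and the difference between the changes are conditioned on that group, and nothing is read from them. The control value was 0.44 without control replicate 3 of 14 days, whose signal was 1.93, and 1.88 without control replicate 2.

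**Figure D3:**
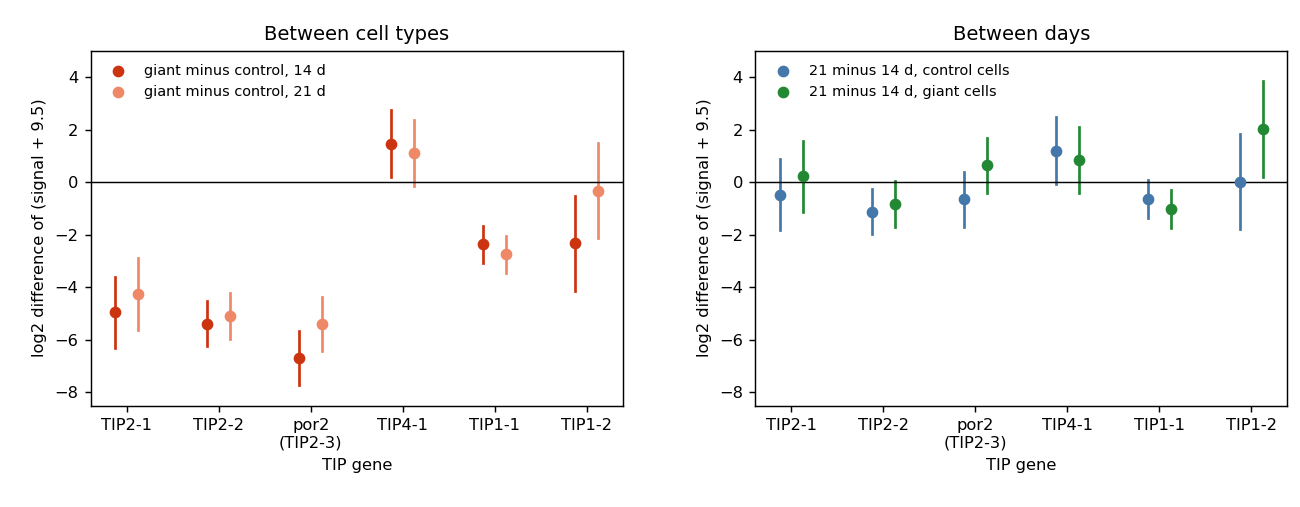
Differences of log2(signal + 9.5) with 95% intervals from limma for 4 TIP genes and for TIP1-1 and TIP1-2, between cell types on each day (left) and between days in each cell type (right). The intervals of TIP2-1, TIP2-2 and por2 lie between -8 and -2 on the left, and on the right the points of the 4 genes lie between -1.13 and 1.19.

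The TIP2 genes were next compared with each other on the same array, where a factor common to the whole array cancels for signals far above the offset. Near the offset, as for por2 and TIP2-2 in giant cells, it cancels only in part. Other offsets were not tried for these differences. Only the shift of such a difference between cell types can be read, since the difference itself depends on the probes, and with the genes chosen on this contrast it is a description. The log2 difference of por2 minus TIP2-1 was -0.98 ± 0.21 (SD, n = 6) on control arrays and -2.41 ± 0.68 on giant-cell arrays. The ranges, -1.26 to -0.70 and -3.36 to -1.48, did not overlap, so on these arrays por2 lay lower relative to TIP2-1 in giant cells than in control cells. For TIP2-2 minus TIP2-1 (-1.76 ± 0.59 and -2.39 ± 1.18) and for por2 minus TIP2-2 (0.78 ± 0.46 and -0.03 ± 1.02) the cell types overlapped.

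TIP1-1, a TIP known as a water channel in maize, gave a reference within the family. TIP2-2 minus TIP1-1 was -0.64 ± 0.55 on control arrays and -3.32 ± 0.43 on giant-cell arrays, and por2 minus TIP1-1 was 0.14 ± 0.32 and -3.35 ± 1.35. In neither pair did the cell types overlap. TIP2-1 minus TIP1-1 was 1.12 ± 0.22 and -0.94 ± 1.52, and there giant-cell replicate 3 of 21 days, at 1.64, lay above all control arrays.

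**Figure D4:**
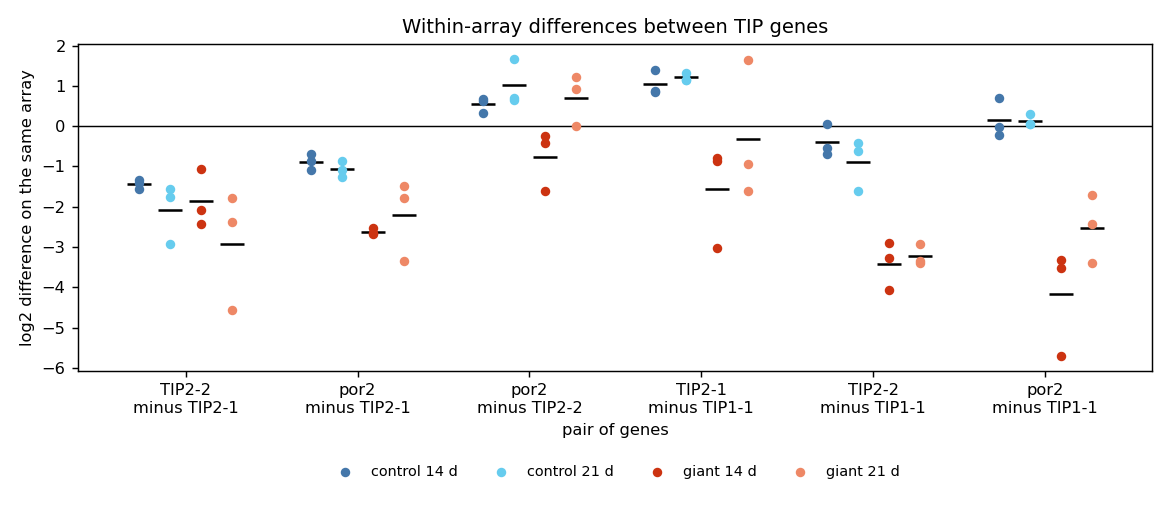
Differences of log2(signal + 9.5) between pairs of TIP genes on the same array, by cell type and day; points are arrays and bars are means of 3 arrays. The control and giant-cell points are separate for por2 minus TIP2-1, TIP2-2 minus TIP1-1 and por2 minus TIP1-1, and they overlap for the other pairs.

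Of the 6 other TIP genes on the array, 2 passed the filter, TIP1-1 and TIP1-2. TIP1-1 (Gene ID 541675) fell in giant cells (log2 -2.55 ± 0.23, 5.85-fold, adjusted p = 1.1e-05). Its signals were 3241.7, 2583.4 and 3037.1, then 2144.1, 1930.7 and 1617.3, in control cells at 14 and 21 days. In giant cells they were 486.0, 363.8 and 1021.4, then 222.2, 364.5 and 254.0, below every control array of either day. TIP1-1 kept its direction and its call in all 20 alternative analyses, with differences of -3.23 to -2.39. Its change between days in giant cells, -1.02 ± 0.33, did not pass (adjusted p = 0.14).

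TIP1-2 (Gene ID 541893) had mean control signals of 123.9 and 117.2 and mean giant-cell signals of 21.4 and 115.3 at 14 and 21 days. Its mean difference of -1.32 ± 0.59 did not pass (adjusted p = 0.089), and its arrays overlapped on both days. It passed in 3 of 19 alternatives, which were scaling to the added transcripts (-1.87, adjusted p = 0.014) and leaving out giant-cell replicate 1 of 14 days or giant-cell replicate 2 of 21 days. TIP3-1, TIP3-2, TIP4-4 and TIP5-1 were too dim to be tested. Group means were 19.1 to 79.1 for TIP3-1, 14.5 to 27.0 for TIP3-2 and 12.8 to 31.9 for TIP4-4, with overlapping cell types on both days.

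TIP5-1, which follows por2 directly in the RefSeq gene order, had control means of 49.1 ± 17.2 and 46.2 ± 38.8 and giant-cell means of 7.33 ± 9.12 and 3.49 ± 1.41 (SD, n = 3). Its giant-cell arrays lay below its control arrays on both days, though all these signals were near the bottom of the scale. Of the tested probe sets, which do not include TIP5-1, 9.83% were separated in this way. The genes on either side of TIP2-1, TIP2-2 and TIP4-1 in that order are not named on the array.

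The other aquaporins of the array set the TIP values beside those of the plasma membrane. Of 10 PIP genes, the plasma membrane intrinsic proteins, 9 were tested, of which 7 fell and 1 rose in giant cells, with a median difference of -2.08 against 0.15 over all tested probe sets. The shares called over all tested probe sets were 17.0% lower and 25.1% higher. The largest of these falls was that of PIP2-4 (-5.33 ± 0.44, adjusted p = 5e-06), which lies between por2 and TIP2-2 in size. PIP1-5 (-2.92, adjusted p = 9.8e-07), PIP1-1 (-3.13, adjusted p = 2.4e-05) and PIP2-5 (-2.87, adjusted p = 2.5e-05) also fell. The 7 falls passed in all 20 alternatives, whereas the rise of PIP1-3 (0.82 ± 0.28, adjusted p = 0.033) passed in 14 of 20 and was 0.13 when scaled to the added transcripts. Its call was also lost without control replicate 2 of 14 or of 21 days, giant-cell replicate 3 of 14 days, or giant-cell replicate 1 or 3 of 21 days.

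Of 8 genes of the NIP and SIP classes 5 were tested, and 1 of them fell, the silicon channel gene Lsi1 (-4.31 ± 0.45, adjusted p = 3.1e-05). The median of these 5 was -0.11, and 17.0% of all tested probe sets were called lower. Scaled to the added transcripts 3 of the 5 were lower, with NIP1-1 (-1.98, adjusted p = 0.025) and SIP2-1 (-0.78, adjusted p = 0.020) beside Lsi1. Under that scaling 4999 of all 12080 tested probe sets were called lower and their median difference was -0.53, to which SIP2-1 is close. Without single arrays 1 or 2 of the 5 were called lower and 0 or 1 higher. Between days 0 of the 9 PIP and 0 of the 5 NIP and SIP genes passed for the difference of the effect. In giant cells 1 PIP gene, PIP2-1, fell from 14 to 21 days (-1.79 ± 0.28, adjusted p = 0.015), against 0.364% of all probe sets called lower. That call was lost without giant-cell replicate 2 or 3 of 14 days and without giant-cell replicate 1 or 3 of 21 days (adjusted p up to 0.073 with limma).

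**Figure D5:**
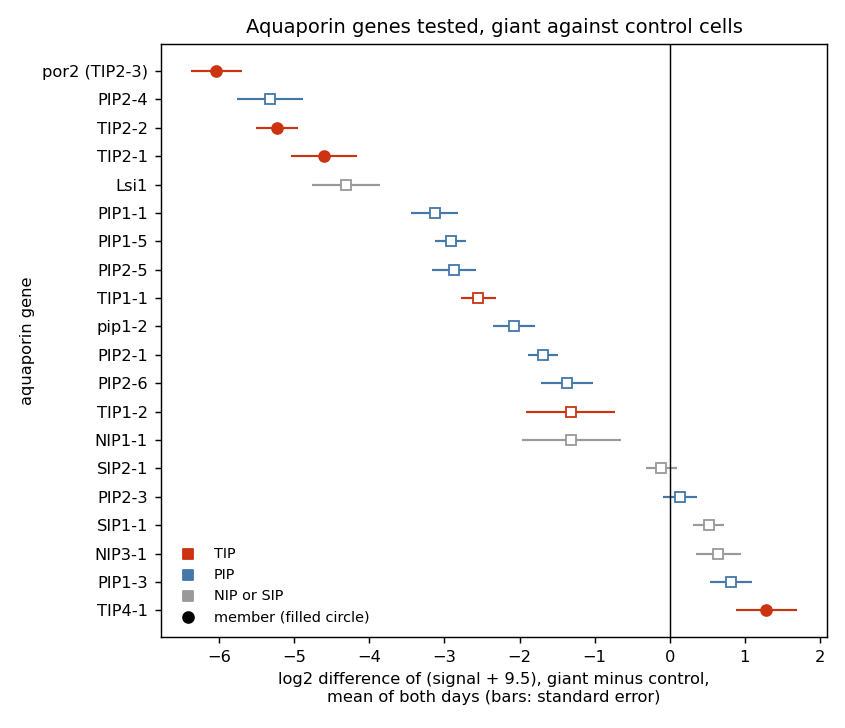
Difference of log2(signal + 9.5) between giant and control cells, mean of both days, with standard errors from limma (n = 6 arrays per cell type), for the 20 aquaporin genes tested; filled circles are por2, TIP2-2, TIP2-1 and TIP4-1. These 3 TIP2 genes, PIP2-4 and Lsi1 lie below -4, and TIP4-1 lies highest at 1.29.

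On the deposited scale the tested genes for other proteins of the vacuole membrane had differences under 1 log2 unit. Of 6 genes for tonoplast pumps and transporters 3 were tested, with a median of 0.28. The proton-pumping pyrophosphatase gene vpp3 fell (-0.62 ± 0.14, adjusted p = 0.0034). The second pyrophosphatase gene on the list, H+-PPase, had 0.28 ± 0.17 (adjusted p = 0.19), and the calcium exchanger gene cax1 had 0.40 ± 0.16 (adjusted p = 0.066). Scaled to the added transcripts, vpp3 had -1.31, and H+-PPase and cax1 changed sign, to -0.41 and -0.29. The median of all tested probe sets was -0.53 under that scaling. In the alternatives cax1 passed in 3 of 20 and H+-PPase in 0 of 20. The sodium/proton exchanger genes NHX3, NHX5 and NHX6 were too dim to be tested. Of the plasma membrane proton pump genes, mha4 fell (-1.50 ± 0.21, adjusted p = 0.00019) and mha1 had 0.16 ± 0.22 (adjusted p = 0.57). Beside the falls of vpp3 and mha4, 17.0% of all tested probe sets were called lower.

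The genes with a pattern most like each TIP gene were sought among 691 named genes, by the root mean square difference of the 2 profiles over the 12 arrays after each was centred on its own mean. All profiles share the same arrays, so this is a description. The 5 nearest to por2 were PIP2-4 (0.81 log2 units), Lsi1 (1.04), the glycine-rich protein gene grp3 (1.13), the aldehyde dehydrogenase gene aldh5 (1.17) and the monosaccharide transporter gene MST1 (1.35). Those nearest to TIP2-1 were Lsi1 (0.82), the beta-glucosidase gene glu1 (0.82), PIP2-4 (0.84), MST1 (0.88) and the glutathione transferase gene gst23 (0.90).

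TIP2-2 was nearest to PIP2-4 (0.83), the aldehyde dehydrogenase gene rf2c (0.95), Lsi1 (0.97), the vacuolar invertase gene ivr2 (1.00) and the glutathione transferase gene gst12 (1.05). PIP2-4 and Lsi1 are thus among the 5 nearest genes of all 3 TIP2 genes. The TIP2 genes differed from each other by 0.82 (por2 and TIP2-2), 0.85 (por2 and TIP2-1) and 0.91 (TIP2-1 and TIP2-2). TIP4-1 lay 3.18 to 3.82 from them, and nearest to it were GRP (0.59), smh3 (0.60), GRF12 (0.60), SRP2B (0.63) and the protein disulfide isomerase gene pdi4 (0.64).

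Markers of root cell types also differed between the captures, and TIP genes are known to be unevenly expressed among root tissues. Of the genes listed for endodermis and exodermis, scr, scr1 and shr were not found by name on the array. The 2 that were found both fell, with summed signals of 1104.3 to 5249.1 on control arrays and 45.1 to 322.8 on giant-cell arrays. One of them is Lsi1, itself an aquaporin gene, and the other is IDDveg9 (-2.13, adjusted p = 0.0073). Whether IDDveg9 marks these layers in the captures was not tested. Of 4 xylem and secondary wall markers 3 fell, the cellulose synthase genes cesa10, cesa11 and CesA12, and LAC1 did not pass (0.40, adjusted p = 0.28). That list had summed signals of 715.2 to 3021.5 in control cells and 307.6 to 1016.9 in giant cells. Beside the falls of these and the following markers, 17.0% of all tested probe sets were called lower.

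The root hair and epidermis marker rop6 fell by 2.11 on the log2 scale, with 225.3 to 506.8 on control arrays and 34.8 to 202.8 on giant-cell arrays. The phloem marker ss2 fell by 1.23, the other phloem gene listed, sut1, was too dim to be tested, and summed phloem signals were 4578.1 to 8079.7 and 1984.2 to 3852.3. Of the 3 genes listed for meristem, lg3 and rs2 were tested, and both rose, where 25.1% of all tested probe sets were called higher. Scaled to the added transcripts, rs2 had an adjusted p of 0.051 with limma. The other gene listed, KN-1, was too dim to be tested. With the earlier day first, KN-1 averaged 27.4 and 17.3 among control arrays, against 27.9 and 32.7 among giant-cell arrays. Sums of the 3 listed were 60.4 to 152.7 in control cells and 186.1 to 486.6 in giant cells. These genes were listed by name, and whether lg3 or rs2 marks meristem in these captures was not tested. Their rises and the sums are therefore not read as a sign of meristem. The photosynthetic markers, whose tested member C4ppdkZm1 did not pass (-0.26, adjusted p = 0.42), had sums of 175.7 to 353.2 and 134.2 to 347.1. No marker was below the offset on all arrays. The part of these tissues in the TIP differences was not tested, and in captured cells fewer cells of a type and less RNA per cell cannot be told apart.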

How the data were processed

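Per the labels' protocols, the PicoPure kit gave the RNA of the captured cells, the WT-Ovation Pico kit amplified it and the FL module (both NuGEN) labelled it with biotin. The deposited values are intensity on a linear scale, MAS5 signals made by the authors in Affymetrix Expression Console, per the submitters' processing notes. The sources used here give no software version, scan date or batch, and detection calls were not used.

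Of 17734 probe sets 113 manufacturer's controls were left out. The platform table gives 1 gene for 1452 of the maize probe sets, several for 1 and none for 16168. Of the 1108 genes it names, 1060 matched RefSeq.

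Signals were offset by 9.5 and log2-transformed. Probe sets above the 40th percentile of their own array on at least 3 arrays were tested, which removed 5541 and left 12080 (stricter filter: 6 arrays). One mean per group was fitted with limma 3.58.1 in R 4.3.3 (lmFit, and eBayes with a variance trend). Tests were two-sided, with Benjamini-Hochberg adjustment over the tested probe sets and a threshold of 0.05. Errors are SE of the fit or SD of arrays, as stated, and the fit was tested on simulated data. The brightest probe set stood for a gene.

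The genes, lists and markers were chosen with earlier results of these data known. Named genes are the 4 genes, their 5 nearest patterns, all other TIP genes and up to 4 called genes of each other list with the smallest p; PIP1-3, PIP2-1, H+-PPase, cax1, mha1 and the dim NHX genes were named after their values were seen. The 20 alternatives changed the offset, filter, normalization, variance trend or replicate block, or left out 1 array.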

Additional observations from a re-analysis of the deposited data

How the results depend on the processing

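The differences between giant and control cells of the 4 TIP genes kept their direction in all alternatives that gave a value (TIP4-1 has none under the stricter filter). No test of a TIP gene between days passed in any of them, where adjusted p-values ran from 0.18 to 1.0. Between cell types an alternative value counted as unchanged if it moved by less than the pooled SD of its gene within groups. In the comparisons between days it counted as unchanged if its sign and its call stayed the same, however far it moved. Of 474 alternative values of these genes 456 were unchanged by these rules, 12 moved by more than the pooled SD and 6 changed sign, all 6 in comparisons that had not passed. Those were TIP2-1 between the effects of the days (-0.23 without giant-cell replicate 3 of 21 days) and between days in giant cells (-0.08 without giant-cell replicate 3 of 14 days, -0.69 without replicate 3 of 21 days), TIP2-2 between the effects (-0.18 without control replicate 3 of 21 days), and TIP4-1 between the effects (0.09 with an offset of 50, 0.40 without control replicate 3 of 14 days). The causes were not tested. With 1 array left out at a time, the difference between the effects ran from -0.23 to 1.5 for TIP2-1, -0.18 to 0.54 for TIP2-2 and -1.04 to 0.40 for TIP4-1. For por2 it ran from 0.95 to 1.89, and it passed in none of these fits.

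Of all probe sets, 5092 were called in the mean contrast, 3324 at 14 days and 2217 at 21 days. Scaling to the added transcripts gave 3678 at 21 days and, in the mean contrast, changed the split from 3038 higher and 2054 lower to 463 and 4999. The 77 calls between days in giant cells became 42 with no filter, 118 with quantile normalization, 19 with scaling to the added transcripts, 48 with no variance trend and 48 with the replicate block. The 3 calls in control cells became 1 with no filter, 0 with scaling to the added transcripts, 1 with no variance trend and 1 with the replicate block. Leaving out 1 array at a time gave 4288 to 5404 calls in the mean contrast, 2085 to 3473 at 14 days, 1038 to 2465 at 21 days, 0 to 9 for the difference between days (0 with all arrays), 4 to 205 in giant cells and 0 to 2 in control cells.

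Equal replicate numbers are not tied to a plant or day by the labels. Deviations of same-numbered samples correlated by -0.072 to 0.235 over 18 pairs, with 4 above 0.1, so the numbers were not taken to pair samples. Signals near the offset, as those of por2 and TIP2-2 in giant cells and of TIP4-1, limit how exactly a fold can be given.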
